A study of Bos taurus with 6 samples.

Results

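TLR2 (ENSBTAG00000008008), TLR4 (ENSBTAG00000006240), CD14 (ENSBTAG00000015032) and LTF (ENSBTAG00000001292) are genes of bacterial sensing and milk defence. They were taken by identifier from the counts of the mammary gland, 4 of the 24579 genes listed for each heifer. Biopsies were taken on day 21 of the first lactation from 3 in utero heat stressed heifers (IUHT-H, TRT:HT, heifers 9196, 9203 and 9204) and 3 in utero cooled heifers (IUCL-H, TRT:CL, heifers 9202, 9214 and 9223). All were Holsteins born in 2014 and managed alike from birth to lactation in 2016. Their dams had shade alone (HT) or shade with fans and soakers (CL) during the last 6 to 7 weeks of gestation, so the exposure was over at birth. The study lists a further IUCL-H, which was not analysed here.

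Toll-like receptors are membrane proteins that recognise molecules shared by many microbes and switch on NF-κB, a transcription factor of inflammatory genes. TLR2 recognises bacterial lipoproteins and TLR4 recognises lipopolysaccharide of Gram-negative bacteria, and CD14, a protein of macrophages that also occurs in milk, hands lipopolysaccharide to TLR4 and its partner MD-2. LTF encodes lactoferrin, an iron-binding protein that deprives bacteria of iron, made by mammary epithelium and stored in neutrophil granules. Lactoferrin in milk is known to rise in udder infection and as the gland dries off.

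Total counts per heifer were between 75754791 and 101361294, and all 3 IUHT-H totals were below all 3 IUCL-H totals. The 10 genes with the most counts over all heifers took between 64.7% and 74.7% of a library. All 4 genes passed the filter on low counts, as did 14724 genes in all. They were counted deeply, from 1663 reads of TLR4 in IUHT-H 9204 to 516384 reads of LTF in IUHT-H 9203, and counting error was at most 2.45% of a value. Values are counts scaled to the library size (CPM) after normalization by the trimmed mean of M-values (TMM). Calls rest on edgeR's quasi-likelihood test over all genes tested, at an unadjusted P of 0.01, the cut-off of the study.

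None of the 4 genes passed this cut-off between IUHT-H and IUCL-H, which 0.428% of all genes tested did (0.285% higher and 0.143% lower in IUHT-H). The unadjusted P was 0.16 for TLR2, 0.66 for TLR4, 0.16 for CD14 and 0.12 for LTF. In all 4 genes the values of the groups overlapped, as they did in all but 6.06% of the genes tested (3.14% with all IUHT-H higher and 2.92% with all IUHT-H lower). LTF had the highest mean in IUHT-H relative to IUCL-H, but also ranged 13.8-fold within IUHT-H. The mean of CD14 was lower in IUHT-H, those of TLR2 and TLR4 were slightly higher, and the median log2 fold change of the 4 genes was 0.14, against 0.0028 over all genes tested. No gene (0%) had an adjusted p below 0.05 in edgeR's quasi-likelihood test, where 374 genes (2.54%) had an unadjusted P below 0.05. The exact test, the likelihood ratio test and DESeq2 gave 9, 11 and 16 genes with an adjusted p below 0.05.

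**Figure D1:**
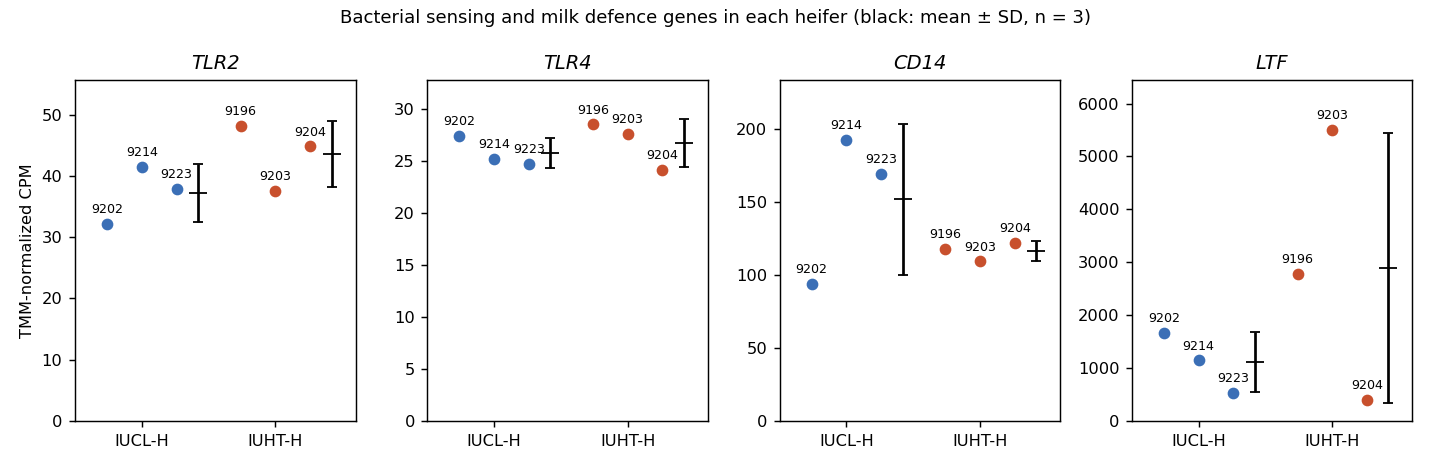
TMM-normalized CPM (y axes, from 0) of TLR2, TLR4, CD14 and LTF in each of 3 IUCL-H (blue) and 3 IUHT-H (red), labelled by heifer, with the mean ± SD of each group in black. The groups overlap in every panel, and the 3 IUHT-H are widely spread in LTF, from 399.2 to 5501 CPM, but close together in CD14, from 109.2 to 122 CPM.

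TLR2 was measured at 32.1, 41.5 and 37.9 CPM in IUCL-H 9202, 9214 and 9223. In IUHT-H 9196, 9203 and 9204 it was measured at 48.1, 37.6 and 44.8 CPM. The highest values were those of IUHT-H 9196 and 9204, whereas IUHT-H 9203 lay below IUCL-H 9214 and 9223. The IUHT-H mean was 43.5 ± 5.38 CPM and the IUCL-H mean 37.2 ± 4.74 CPM (SD, n = 3 each). This gave a log2 fold change of 0.23 (standard error 0.15, adjusted p = 0.999 in edgeR's quasi-likelihood test), with a 95% interval from 0.928-fold to 1.48-fold.

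TLR4 was the steadiest of the 4 genes, with 27.4, 25.2 and 24.7 CPM in IUCL-H 9202, 9214 and 9223. In IUHT-H 9196, 9203 and 9204 it was measured at 28.5, 27.5 and 24.1 CPM. The highest and the lowest of the 6 values were both those of IUHT-H and differed 1.18-fold. The IUHT-H mean was 26.7 ± 2.3 CPM and the IUCL-H mean 25.8 ± 1.43 CPM (SD, n = 3 each). This gave a log2 fold change of 0.05 (standard error 0.11, adjusted p = 0.999 in edgeR's quasi-likelihood test), and the 95% interval ran from 0.865-fold to 1.24-fold. The spread of TLR4 within groups, as an SD of log2 CPM, was 0.11, and 11.3% of the genes tested had a smaller one.

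CD14 was measured at 93.8, 192.3 and 168.8 CPM in IUCL-H 9202, 9214 and 9223. In IUHT-H 9196, 9203 and 9204 it was measured at 117.8, 109.2 and 122 CPM. The IUHT-H values were close together, and the IUCL-H values lay on both sides of them. The IUHT-H mean was 116.3 ± 6.52 CPM and the IUCL-H mean 151.6 ± 51.5 CPM (SD, n = 3 each). This gave a log2 fold change of -0.38 (standard error 0.25, adjusted p = 0.999 in edgeR's quasi-likelihood test), with a 95% interval from 0.517-fold to 1.14-fold. IUCL-H 9202 and 9214, the lowest and the highest of the 6 heifers, moved this value most. Without IUCL-H 9202, the log2 fold change was -0.64 and passed the cut-off, with an unadjusted P of 0.0026 and adjusted p = 0.588 in edgeR's quasi-likelihood test. The fit without IUCL-H 9202 called 246 genes in all, against 63 with all 6 heifers. Without IUCL-H 9214 the log2 fold change of CD14 was -0.18 and did not pass. A biopsy holds many cell types, so fewer CD14-expressing cells and less CD14 RNA per cell cannot be told apart.

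LTF was measured at 1662, 1143 and 525.9 CPM in IUCL-H 9202, 9214 and 9223. In IUHT-H 9196, 9203 and 9204 it was measured at 2781, 5501 and 399.2 CPM. The 2 highest values and the lowest value of the 6 were all those of IUHT-H, and the 3 IUCL-H lay between them, spread 3.16-fold. The share of all counts that fell on LTF was 0.644% in IUHT-H 9203 and 0.0324% in IUHT-H 9204. The IUHT-H mean was 2894 ± 2553 CPM and the IUCL-H mean 1110 ± 568.8 CPM (SD, n = 3 each). This gave a log2 fold change of 1.38 (standard error 0.80, adjusted p = 0.999 in edgeR's quasi-likelihood test), and the 95% interval ran from 0.726-fold to 9.35-fold. The spread of LTF within groups, as an SD of log2 CPM, was 1.51, larger than in 99.2% of the genes tested, and 124 genes had a larger one.

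The LTF change depended on which IUHT-H entered the fit. Without IUHT-H 9204 the log2 fold change was 1.90 and passed the cut-off. The unadjusted P was 0.0057 and adjusted p = 0.604 in edgeR's quasi-likelihood test. Over all genes tested, that fit called 225 genes, against 63 with every heifer. IUHT-H 9204 had the lowest LTF and both other IUHT-H the highest, so leaving it out separates the groups by construction. That separation is not further evidence of a change. Without IUHT-H 9203 the log2 fold change of LTF was 0.51 and did not pass. For TLR2 and TLR4, leaving out each heifer in turn gave log2 fold changes from 0.13 to 0.32 and from 0.0019 to 0.12, none past the cut-off.

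**Figure D2:**
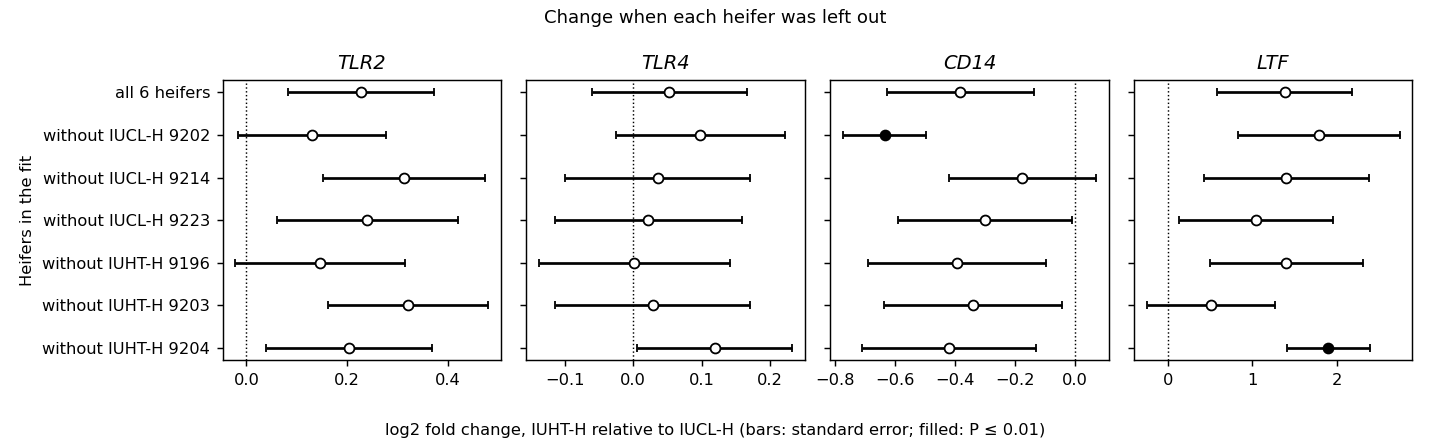
Log2 fold change of IUHT-H relative to IUCL-H (x axes, bars: standard error) for TLR2, TLR4, CD14 and LTF with all 6 heifers and without each heifer in turn (y axis), filled where the unadjusted P of edgeR's quasi-likelihood test was at most 0.01. The cut-off was passed in 2 fits, for CD14 without IUCL-H 9202 (-0.64) and for LTF without IUHT-H 9204 (1.90). Over all genes tested, these fits called 246 and 225 genes, against 63 with all 6 heifers.

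Ratios of the counts of 2 genes within a heifer do not depend on the scaling of libraries. The ratio of TLR2 to CD14 counts was 0.342, 0.216 and 0.224 in IUCL-H 9202, 9214 and 9223. In IUHT-H 9196, 9203 and 9204 it was 0.408, 0.344 and 0.367, above all IUCL-H, although IUCL-H 9202 and IUHT-H 9203 nearly coincided. The difference in the mean log2 ratio was 0.55, and the exact two-sided permutation test gave P = 0.10, the smallest value that 3 heifers against 3 allow, and 0.60 after adjustment over the 6 pairs of genes. In the other 5 pairs the groups overlapped. The ratio of TLR2 to TLR4 lay between 1.17 and 1.86 in all 6 heifers, and the ratio of TLR4 to CD14 between 0.131 and 0.292. The ratio of CD14 to LTF ranged from 0.0198 in IUHT-H 9203 to 0.321 in IUCL-H 9223.

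A heifer with an inflamed udder would be recognised by high levels of acute phase, chemokine and antimicrobial genes, and these were read beside the 4 genes. Of the genes listed for signalling below the Toll-like receptors, their target genes, milk defence and udder inflammation, 9 others could be named and passed the filter. The study selected all 9 as different in these heifers, so neither their direction nor the place of an IUHT-H as the highest heifer is independent evidence. In 4 of the 9, IUHT-H were higher at the cut-off, and these were NFKBIA, the inhibitor of NF-κB that is itself switched on by NF-κB (log2 fold change 0.80), LCN2, a protein that withholds iron-carrying siderophores from bacteria (1.44), SERPING1, the inhibitor of complement C1 (1.09), and JCHAIN, the chain that joins the units of secreted antibodies (1.63). Each had adjusted p = 0.999 in edgeR's quasi-likelihood test. LCN2 passed in every alternative fit, whereas NFKBIA and SERPING1 did not pass without IUCL-H 9214, IUCL-H 9223, IUHT-H 9196 or IUHT-H 9203 (log2 fold changes of at least 0.63 and 0.89). NFKBIA also did not pass with scaling by library size only, and JCHAIN did not pass without IUCL-H 9202 or 9214 or with the share of the 10 most-counted genes as a covariate. The other 5 did not pass, with log2 fold changes of 1.55 in SELE, an adhesion molecule of activated endothelium counted with 3 to 18 reads, 2.35 in HP, 1.23 in VNN1, a pantetheinase, 2.22 in GRO1 and 0.79 in SOD2, the manganese superoxide dismutase. All 5 passed with the exact and likelihood ratio tests, and HP, VNN1 and SOD2 also with DESeq2. GRO1 was at 1.03 without IUHT-H 9203 and HP at 1.08 without IUHT-H 9196, and neither passed there. Without IUHT-H 9204, where 225 of all genes passed, GRO1 (2.70), HP (2.83), VNN1 (1.52) and SOD2 (0.98) passed. SOD2 also passed without IUCL-H 9202 (1.11), and HP with scaling by library size only and with every gene of at least 1 count. By list, 1 of 1 signalling gene, 0 of 3 target genes, 3 of 6 milk defence genes (LTF among the 6) and 2 of 5 udder inflammation genes passed upwards and none downwards, and some genes stand in more than 1 list. Apart from LTF, the study had selected every gene counted by list, so these counts are not independent evidence of a change in the lists. The shares over all genes tested were 0.285% upwards and 0.143% downwards. The lists hold 33, 26, 39 and 23 genes, most of which could not be named here.

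**Figure D3:**
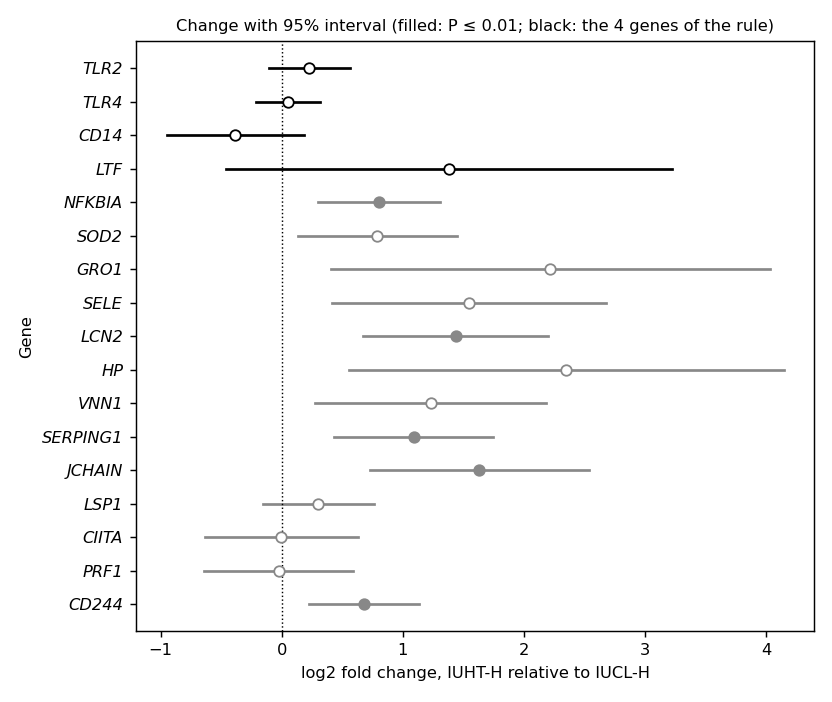
Log2 fold change of IUHT-H relative to IUCL-H (x axis) with its 95% interval for the 4 genes of bacterial sensing and milk defence (black) and, in grey, 9 genes of inflammation and defence and 4 leukocyte genes (y axis), filled where the unadjusted P was at most 0.01. The intervals of TLR2, TLR4, CD14 and LTF all contain 0, and that of LTF, from -0.46 to 3.23, is the widest of the 4.

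IUHT-H 9203 was the highest heifer in 6 of these 9 genes and among the 2 highest in all 9. Over all genes tested, the highest heifer was IUCL-H 9202 in 14.3%, 9214 in 20.3% and 9223 in 15.2%, and IUHT-H 9196 in 17.3%, 9203 in 15.5% and 9204 in 17.3%. GRO1, a chemokine that attracts neutrophils, was measured at 6.16 CPM in IUHT-H 9203, 1.99 CPM in IUHT-H 9196 and 0.551 CPM in IUHT-H 9204, and IUCL-H 9202, 9214 and 9223 had 0.905, 0.642 and 0.319 CPM. LCN2 was measured at 37.8 CPM in IUHT-H 9203, 24.8 and 21.4 CPM in IUHT-H 9196 and 9204 and between 6.1 and 14.8 CPM in IUCL-H. In 5 of the 9 genes, IUHT-H 9203 was at least 2 times the median of the other 5 heifers, and in LTF it was 4.81 times that median. Over all genes tested, the highest heifer reached this in 1.83%, 0.869% and 1.15% of genes as IUCL-H 9202, 9214 and 9223. As IUHT-H 9196, 9203 and 9204 it reached this in 1.91%, 1.81% and 1.11%. These shares are of unselected genes, whereas the study selected the 9 genes in these same heifers. The counts among the 9 therefore cannot be weighed against them.

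IUHT-H 9196 was the highest heifer in the other 3 genes. HP, the acute phase protein haptoglobin, was measured at 5.79 CPM in IUHT-H 9196, 11.4 times the median of the other 5 heifers. IUHT-H 9203 and 9204 had 1.7 and 0.507 CPM of HP, and the IUCL-H had 0.365 to 0.753 CPM. IUHT-H 9204 was the highest in none of the 9 genes. Its HP and GRO1 lay within the range of IUCL-H, whereas its LCN2, NFKBIA, SERPING1, JCHAIN and SELE were above all 3 IUCL-H. In these 5 genes all IUHT-H were above all IUCL-H, as in 3.14% of all genes tested. The study selected these genes in these heifers, so the place of IUHT-H 9204 above the IUCL-H is not independent evidence.

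The antimicrobial peptide genes LAP and DEFB had too few counts to pass the filter with all 6 heifers. LAP had 2, 1 and 1 reads in IUCL-H 9202, 9214 and 9223 and 8, 25 and 0 reads in IUHT-H 9196, 9203 and 9204. DEFB had 8, 3 and 6 reads in IUCL-H and 41, 22 and 6 reads in IUHT-H, in the same order of heifers, and the study selected DEFB in these heifers too. Beta-defensin genes have near-identical copies, so how reads were shared among them is uncertain. For both, IUHT-H 9196 and 9203 were the 2 highest heifers, and IUHT-H 9204 had 0 reads of LAP. Its 6 reads of DEFB were fewer than the 8 of IUCL-H 9202, but reads are not scaled to the library. For IUHT-H 9204, 3 reads equal 0.0435 CPM after TMM scaling, and for IUCL-H 9202 they equal 0.0298 CPM. The order of these 2 heifers in DEFB therefore depends on the scaling.

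IUHT-H 9196 and 9203 were not the 2 highest heifers for TLR2 or CD14, but they were for TLR4, over a narrow range. In IUHT-H 9203, with the highest LTF, LCN2 and GRO1, TLR2 and CD14 were each the next to lowest of the 6 heifers. TLR4 was lowest in IUHT-H 9204, which was the lowest in none of the 9 inflammation and defence genes. IUHT-H 9196 was the highest for TLR2 and TLR4, at 1.27 and 1.13 times the median of the others. CD14 was highest in IUCL-H 9214, at 1.63 times the median of the others, and next highest in IUCL-H 9223. No heifer was therefore the highest in all 4 genes, nor in LTF together with CD14. Of the 9 inflammation and defence genes, IUCL-H 9214 was the lowest heifer in 4 and IUCL-H 9223 in 5. As the study selected all 9 in these heifers, the place of an IUCL-H as the lowest is not independent evidence.

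**Figure D4:**
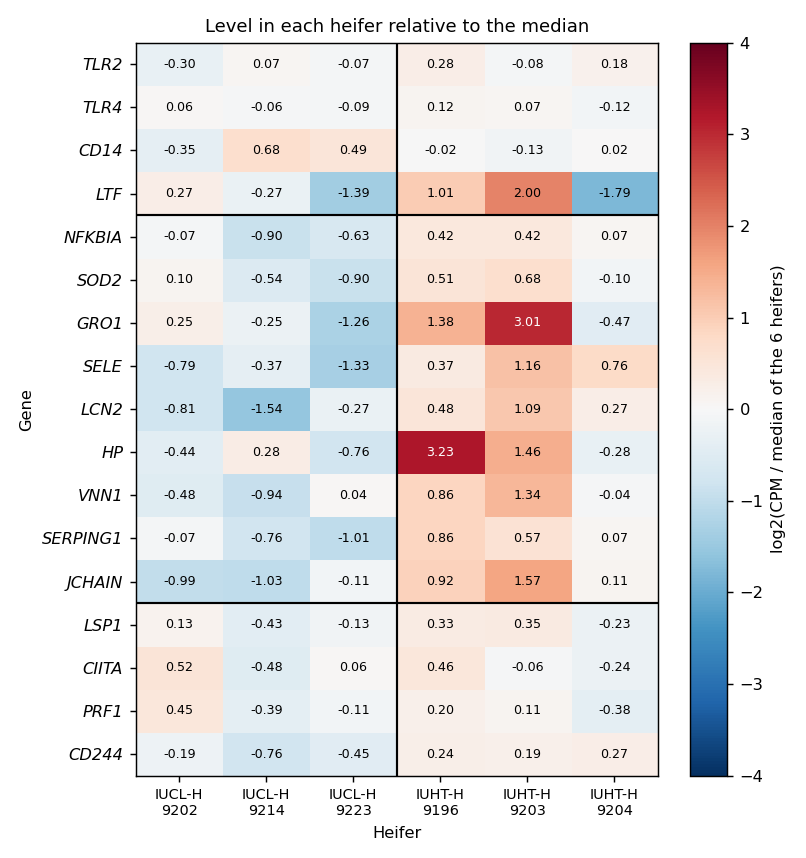
Heat map of log2(CPM / median of the 6 heifers), with 1 column per heifer and 1 row per gene, for the 4 genes of bacterial sensing and milk defence (top), 9 genes of inflammation and defence (middle) and 4 leukocyte genes (bottom). IUHT-H 9203 is highest in LTF (4.81 times the median of the other 5 heifers) and in 6 of the 9 genes of the middle block, while its TLR2 and CD14 lie below the median.

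Leukocytes carry TLR2, TLR4 and CD14, so leukocyte genes were also read in each heifer. Of the marker lists of macrophages, neutrophils, T cells, all leukocytes and milk proteins, 0 genes could be named. The cell markers that could be named were JCHAIN, of antibody-secreting cells, and CLDN3, of epithelial tight junctions (62.4 to 94.1 CPM, overlapping between groups), so the labelled tissue could not be checked against its defining markers. Instead, 4 leukocyte genes that could be named were taken after the values had been seen. These are LSP1, a leukocyte cytoskeletal protein, CIITA, the activator of major histocompatibility complex class II genes, PRF1, the perforin of cytotoxic lymphocytes, and CD244, a receptor of natural killer cells. IUCL-H 9202, 9214 and 9223 had 34.9, 21.4 and 27.5 CPM of these genes in sum, and IUHT-H 9196, 9203 and 9204 had 37.4, 34.6 and 25.9 CPM. The sums overlapped between groups, and IUCL-H 9214, with the most CD14, had the lowest. LSP1, at 12.7 to 21.8 CPM, was the largest part of each sum. None of the 4 is from the macrophage list, so the sum does not give the number of cells that carry CD14. CD244, which the study also selected in these heifers, passed the cut-off upwards (log2 fold change 0.68, adjusted p = 0.999 in edgeR's quasi-likelihood test), and the other 3 did not pass, with log2 fold changes between -0.03 and 0.30. The call of CD244 held with a heifer left out only without IUCL-H 9202, and it was lost with scaling by library size only and with the share of the 10 most-counted genes as a covariate. The part of leukocyte number in the 4 genes was not tested.

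LTF and TLR4 were lower where a larger share of counts lay in the 10 most-counted genes, an association over heifers that missed the adjusted threshold. IUCL-H 9202, 9214 and 9223 had shares of 67.6%, 72.5% and 72.1%, and IUHT-H 9196, 9203 and 9204 had shares of 65.8%, 64.7% and 74.7%, so the 2 heifers with the most LTF had the lowest shares. In a lactating gland, such genes are typically those of the major milk proteins, but the identifiers of these 10 could not be paired with names. Pearson's r of log2 CPM with this share over the 6 heifers was -0.94 for LTF (exact permutation test, P = 0.0056, adjusted P = 0.056 over 10 correlations) and -0.96 for TLR4 (P = 0.017, adjusted P = 0.065). Spearman's rho was -0.94 for LTF (exact permutation test, P = 0.017, adjusted P = 0.083) and -0.89 for TLR4 (P = 0.033, adjusted P = 0.11). Without the 2 heifers farthest from the median share, IUHT-H 9203 and 9204, r was -0.86 for LTF and -0.99 for TLR4. Within the groups, as deviations from the group means, r was -0.94 for LTF and -0.96 for TLR4. The share and the CPM come from the same libraries, and 3.43% of all genes tested had r of -0.9 or below with this share and 3.47% had r of 0.9 or above.

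**Figure D5:**
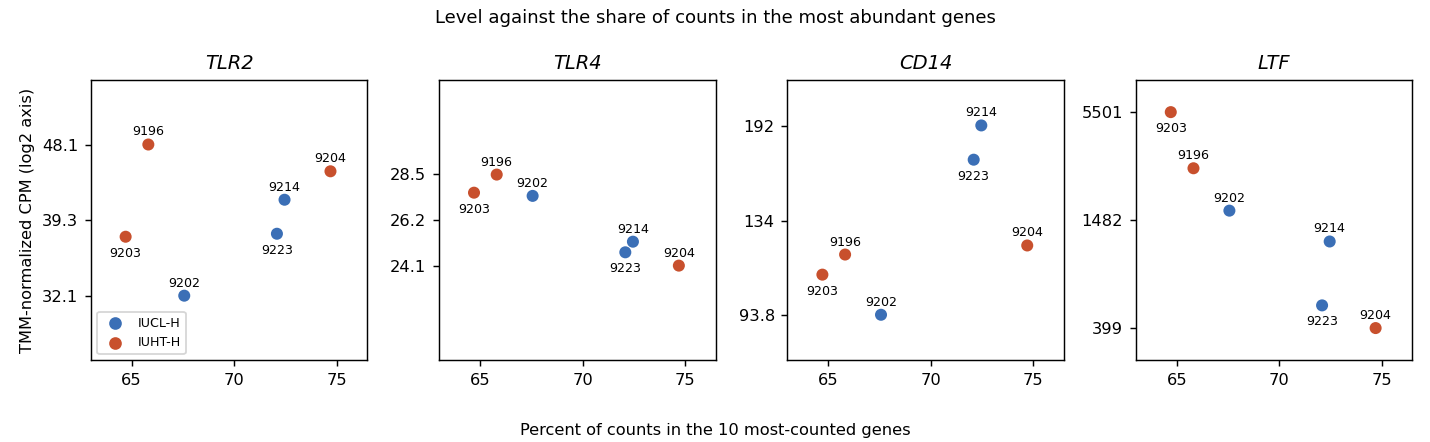
TMM-normalized CPM (y axes, log2 scale) of TLR2, TLR4, CD14 and LTF against the percent of counts in the 10 most-counted genes (x axes) in 3 IUCL-H (blue) and 3 IUHT-H (red). LTF falls from 5501 CPM at a share of 64.7% to 399.2 CPM at 74.7%, TLR4 stays between 28.5 and 24.1 CPM, and TLR2 and CD14 do not fall along the axis.

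For CD14 and TLR2, r with this share was 0.60 and 0.20 (exact permutation test, P = 0.24 and 0.70, adjusted P = 0.49 and 0.84), and rho was 0.66 and 0.31 (P = 0.175 and 0.56, adjusted P = 0.44 and 0.70). Without the same 2 heifers r was 0.87 for CD14 and -0.17 for TLR2. With scaling by library size only, which by construction lowers the other genes where this share is larger, it was -0.67 for TLR2. LTF and TLR4 were correlated over the 6 heifers, with r of 0.89 (exact permutation test, P = 0.019, adjusted P = 0.065) and rho of 0.94 (P = 0.017, adjusted P = 0.083). Without the 2 heifers farthest from the median TLR4, r was 0.86, and within the groups it was 0.88. The other 5 pairs among the 4 genes had r between -0.61 and 0.29, with P of at least 0.24 in exact permutation tests, and 3 of them changed sign with scaling by library size only. With the share as a covariate, a fit chosen after the data had been seen, the log2 fold change of LTF was 0.04 (standard error 0.40) in place of 1.38, and it did not pass the cut-off. In that fit those of TLR2, TLR4 and CD14 were 0.28, -0.0036 and -0.24. LTF fell with this share in the same 6 heifers, so the fit cannot test the part of the share in the LTF values. That part was not tested.

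The genes most like each of the 4 were sought by Pearson's r of log2 CPM over the 6 heifers among 8325 genes with a mean of at least 5 CPM, of which 145 could be named. Names came from lists published with the study, so the named genes are a selected set. For LTF, the nearest named genes were RARA, the retinoic acid receptor alpha (r = 0.94), EML3 (r = 0.94) and DTX3 (r = 0.93). RARA was measured at 36.8 CPM in IUHT-H 9203 and 17.9 CPM in IUHT-H 9204, a far smaller range than that of LTF. For TLR4, they were NOTCH3, a receptor of the Notch pathway (r = 0.94), ARHGEF11 (r = 0.92) and RCSD1 (r = 0.92). For CD14, they were MZF1 (r = 0.95), VPS53 (r = 0.92) and PI4KA (r = 0.90), and for TLR2, ANKS1A (r = 0.89), LMF2 (r = 0.89) and BLA-DQB (r = 0.83), a class II gene whose family has near-identical copies. Genes with r of at least 0.95 numbered 28 (0.336%) for LTF, 70 (0.841%) for TLR4, 80 (0.961%) for CD14 and 7 (0.0841%) for TLR2. For LTF, TLR4 and TLR2, none of these could be named. Genes with r of -0.95 or below numbered 62 for LTF, 118 for TLR4, 46 for CD14 and 2 for TLR2. The points of each r are only 6 heifers that share a library with the gene compared.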

How the data were processed

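RNA sequencing of mammary biopsies from 3 IUHT-H and 3 IUCL-H, each a separate heifer, was analysed. The authors mapped the reads with TopHat2 (2.0.13) and deposited whole-number read counts per Ensembl gene, neither normalized nor filtered. The assembly is bosTau7 in the study's methods and UMD3.1 in the submitters' processing notes, which also name HTSeq. The annotation is not given in the sources used here, and no coordinates or sequences are reported. The library kit is not described as marking strand.

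The 4 genes and all lists were chosen with earlier results of these data known. The names of the 4 genes come from the rule that chose them, and 375 other identifiers were paired with names by lists published with the study. Of the reference table, 0 rows hold a bovine Ensembl identifier. Other Toll-like receptors, MD-2 and the planned ratios to macrophage and epithelial markers were therefore not analysed here.

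Genes were filtered with filterByExpr, scaled by TMM and tested with edgeR (4.0.16, R 4.3.3; glmQLFit, glmQLFTest) without covariates over all 14724 genes, at an unadjusted P of 0.01 and with Benjamini-Hochberg adjustment. The standard error is the log2 fold change divided by the square root of F, and 95% intervals use the test's degrees of freedom. Ratios and correlations were tested by exact permutation (scipy 1.17.1). The genes named were the 4 genes, the named genes of the lists, and for each of the 4 the 3 named genes with the highest r. The scripts were tested on simulated counts. Alternatives were the exact and likelihood ratio tests, DESeq2 (1.42.0), a robust fit, RLE or no scaling factors, 3 other filters, leaving out the 10 most-counted genes, and leaving out each heifer. A fit with the share of the 10 most-counted genes as a covariate, the tests of the ratios and correlations under other settings and the 4 leukocyte genes were chosen after seeing the data, and a further gene chosen with them is not reported here, for a reason unrelated to its values.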

Additional observations from a re-analysis of the deposited data

How the results depend on the processing

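Over 17 alternatives, the log2 fold changes of TLR2 (0.13 to 0.37), CD14 (-0.64 to -0.18) and LTF (0.04 to 1.90) kept their direction, and that of TLR4 (-0.0036 to 0.20) was negative in 1, with the share of the 10 most-counted genes as a covariate, which was chosen after seeing the data. The lowest of these for LTF, 0.04, came with the covariate. Leaving out 1 heifer at a time gave 0.13 to 0.32 for TLR2, 0.0019 to 0.12 for TLR4, -0.64 to -0.18 for CD14 and 0.51 to 1.90 for LTF, and calls were gained for CD14 without IUCL-H 9202 and for LTF without IUHT-H 9204. Genes past the cut-off numbered 63, and 108 with the exact test, 112 with the likelihood ratio test, 124 with DESeq2 and 38 (without IUCL-H 9214) to 246 (without IUCL-H 9202) with a heifer left out, 225 without IUHT-H 9204. Milk defence genes past it numbered 3, and 5 with each of those other tests and 1 to 7 with a heifer left out, and the counts were 0 to 1 for Toll-like receptor recognition and 0 to 1 for signalling. The 7 came without IUHT-H 9204 and exceed the 6 milk defence genes tested with all heifers. The filter was applied again in each fit, and there it let in LAP or DEFB. The signalling count was 0 with scaling by library size only, which moved the median of all genes to 0.13. Relative to it, TLR2, TLR4, CD14 and LTF were at 0.24, 0.06, -0.35 and 1.47. That scaling split the called genes into 36 higher and 8 lower, against 42 and 21, and reversed CIITA (0.13), PRF1 (0.11) and the correlations of TLR2 with TLR4 (0.71), TLR2 with LTF (0.67), CD14 with LTF (0.0915) and TLR2 with the share (-0.67). CIITA was also at 0.0012 with more than 1 CPM in 3 heifers. With the covariate, RCSD1, RARA, EML3 and DTX3 were at -0.0137, -0.0030, -0.0808 and -0.0163. With a heifer left out, log2 fold changes ranged from -0.24 to 0.27 for CIITA, from -0.20 to 0.25 for PRF1, from -0.0232 to 0.10 for ANKS1A, from -0.0573 to 0.29 for RCSD1, from -0.0789 to 0.44 for RARA, from -0.0910 to 0.13 for EML3 and from -0.0397 to 0.26 for DTX3, and the difference in the log2 ratio of TLR2 to LTF from -1.77 to 0.25. The cause of these reversals was not tested. No paired analysis was possible because the groups share no replicate numbers. The planned ratios to macrophage and epithelial markers were not run, because too few of these markers could be named. Depth did not limit the 4 genes, whose counts were at least 1663.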
